A study of Mus musculus with 6 samples.

Results

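Calvarial osteoblasts, the bone-forming cells of the skull roof, were measured in 3 of the 6 arrays of the series, and these 3 arrays were chosen by their labels alone. Every sample of the series came from mice of genotype OC-GFP, strain C57Bl6/J, in which green fluorescent protein reports osteocalcin, and held cells sorted for that fluorescence. The osteoblast samples each pooled 6 mice of mixed gender. Their age was 6 weeks for replicate 1, 5 to 6 weeks for replicate 2 and 6 to 7 weeks for replicate 3. Calvariae were digested with trypsin and collagenase A, an early digest was discarded, and the cells freed later were sorted. The RNA was amplified, biotinylated and hybridised to Illumina bead arrays. The other 3 arrays hold sorted cells of the periodontium and entered the scaling only.

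The promoter fragment that drives the reporter is not given in the sources used here. Since cells were chosen by an osteocalcin reporter, the osteocalcin level itself is not independent of the sort. The labels do not say whether the 3 pools came from separate litters or days, so the spread given below is that between these 3 samples. In pooled RNA, fewer cells of a type and less RNA per cell cannot be told apart.

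Osteoblasts lay down osteoid, a matrix made mostly of type I collagen, and then mineralise it with the help of alkaline phosphatase and of acidic matrix proteins. Osteocalcin, a small calcium-binding protein secreted late in this course, marks the mature cell, while cells buried in the matrix become osteocytes and switch on genes such as Sost. The frontal part of the skull roof derives from neural crest and the parietal part from mesoderm, and both are patterned without the Hox genes used further back in the body.

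Osteocalcin is encoded in the mouse by neighbouring gene copies, of which Bglap2 and Bglap were measured by separate probes. The promoters of Bglap and of Ibsp, which encodes bone sialoprotein, are shown as examples. Both genes gave bright signals in these sorted cells, and the former belongs to the family whose activity the reporter follows. The sequences are those of RefSeq on build GRCm38.p6 and hold the 250 bases before the annotated start, 5′ to 3′ on the strand of the gene. Bglap lies on the minus strand at chr3:88383495-88384466 and its window is chr3:88384467-88384716. Ibsp lies on the plus strand at chr5:104299287-104311472 and its window is chr5:104299037-104299286. Capitals mark ACCACA, the core letters of the site bound by Runt-domain transcription factors, and TATAAA or its reverse complement TTTATA, the TATA letters.
Bglap: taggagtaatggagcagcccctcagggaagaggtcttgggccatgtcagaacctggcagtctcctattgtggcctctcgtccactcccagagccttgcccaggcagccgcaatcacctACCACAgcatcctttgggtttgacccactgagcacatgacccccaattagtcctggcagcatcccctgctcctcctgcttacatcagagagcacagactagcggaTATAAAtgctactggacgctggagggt
Ibsp: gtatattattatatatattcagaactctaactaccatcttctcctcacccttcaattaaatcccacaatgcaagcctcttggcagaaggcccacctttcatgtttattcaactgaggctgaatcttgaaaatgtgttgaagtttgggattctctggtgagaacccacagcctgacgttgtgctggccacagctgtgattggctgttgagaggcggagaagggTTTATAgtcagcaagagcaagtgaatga

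In the Bglap window ACCACA began 132 bases and TATAAA 27 bases before the start. In the Ibsp window TTTATA began 28 bases before the start and ACCACA was not among the letters on either strand. Windows of Sparc and of the osteocalcin copy Bglap3 were read as well and are not shown. They held neither ACCACA nor TATAAA on either strand, although Sparc ranked 3 by mean signal rank and Ibsp 144. Of 32851 promoter windows of 250 bases in the table, 14.0% held ACCACA and 12.4% held TATAAA on either strand. The longer form AACCACA was searched first, was in neither window, and was held by 4.40% of all windows; the shorter core, which overlaps it, was chosen after the Bglap window had been read. These matches describe letters and not bound sites.

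The 3 arrays differed in how much they detected. A gene was called detected where its brightest probe had a deposited detection p below 0.05, and 16593 genes could be named. Of these, 6417 were detected on replicate 1, 9247 on replicate 2 and 8946 on replicate 3. On all 3 arrays 5848 genes were detected, which is 35.2% of those named, and on none 6367, which is 38.4%. Counts of list members detected on all arrays or on none are to be read beside these 2 shares. Replicate 1 was the array that stood apart. It lacked 2547 genes that both other arrays detected, against 27 lacking on replicate 2 and 114 on replicate 3 in the same sense.

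The bead signal, in linear intensity units, had its median at 81.2 on replicate 1, 95.6 on replicate 2 and 111.1 on replicate 3. The highest signals were of like size, at 28370, 29969 and 21672. The signal above the median probe was summed over genes, with 1 probe per gene. The 25 genes of highest mean rank over the 3 arrays held 33.2% of it on replicate 1, 13.8% on replicate 2 and 9.38% on replicate 3. A larger part of the signal on replicate 1 thus lay in these genes, and its curve of signal against rank dropped faster than those of the other arrays.

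**Figure D1:**
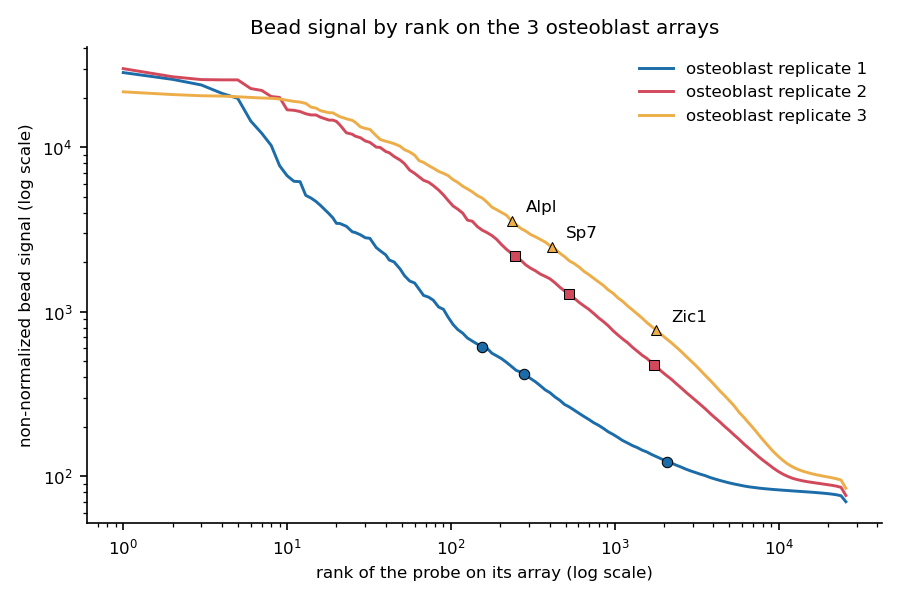
Bead signal (linear intensity units, log axis) against the rank of the probe by signal (log axis) for the 3 osteoblast arrays, 1 line per array. The lines start between 21672 and 29969, and the line of replicate 1 lies below those of replicates 2 and 3 from rank 5 on. Symbols on the lines mark the probes of Alpl, Sp7 and Zic1, and on the line of replicate 1 Sp7 lies to the left of Alpl.

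Levels below are log2 intensities after background correction and quantile normalization, given in the order of replicates 1, 2 and 3 and as mean ± SD over n = 3. Quantile normalization gives equal ranks equal values, so a level is close to a statement of rank within the array. For Alpl, for instance, bead signals of 418, 2191 and 3572 became 10.10, 10.26 and 10.30. The bead signal was lowest on replicate 1 for 5842 of the 5848 genes detected on all arrays, so a gene called higher there is so by rank and by the quantile scaling, and not in bead signal unless that is given. For the lists whose means are given, it is stated where the highest or lowest array turns under another scaling. Probe brightness depends on the probe as well as on the RNA, so the order of genes is an order of signals and not of measured amounts of mRNA.

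The brightest signals of these cells were those of bone matrix. Bglap2, an osteocalcin gene, read 14.21, 14.21 and 13.90 and ranked 1, 1 and 4 among the 16593 genes. Col1a1, the alpha 1 chain of type I collagen, read 13.98, 13.87 and 14.07, and Sparc, osteonectin, read 13.69, 13.53 and 14.21. Bglap read 14.07, 14.07 and 13.23. These 4 genes filled the first 4 places by mean rank, and each differed by under 2-fold between any pair of arrays. A second Bglap probe was as bright, and another was dimmer and read 10.26, 8.22 and 7.19, so probes of 1 gene spanned a wide range of signals. Whether the probes of Bglap and Bglap2 bind each other's transcript was not tested.

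Among the 25 genes of highest mean rank, 7 were on the list of bone matrix genes and 7 encoded ribosomal proteins. Beyond the 4 above, the bone matrix members were Bgn, Col1a2 and Lum. Bgn, the proteoglycan biglycan, read 13.23, 12.73 and 13.21. Col1a2, the alpha 2 chain of type I collagen, read 13.11, 12.60 and 12.66, and Lum, the proteoglycan lumican, read 12.28, 12.04 and 12.98. Of these 3, lumican had the widest spread over the arrays.

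Other extracellular genes were also in the first 25. Serpinf1, which encodes pigment epithelium-derived factor, a secreted protein whose loss impairs bone mineralisation in humans, read 13.53, 13.45 and 13.11. Dcn, the proteoglycan decorin, read 13.37, 13.23 and 12.81. Gpx3, a secreted glutathione peroxidase, read 12.86, 12.95 and 13.18. Mmp2, a gelatinase, read 12.51, 12.21 and 12.93, and Cst3, a secreted cysteine protease inhibitor, read 12.78, 12.78 and 12.86. Decorin and Mmp2 are widely made by connective tissue cells and are not particular to bone. Gja1, the gap junction protein connexin 43 that couples osteoblasts to osteocytes, read 12.69, 12.22 and 12.21, and Itm2b, a membrane protein, read 12.71, 12.66 and 12.95.

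The remaining bright genes belong to general cell functions. Ribosomal protein genes in the first 25 were Rpl41, Rplp1, Rpl23, Rps20, Rps12, Rps24 and Rpl38, and Rplp1 read 12.95, 13.06 and 13.98. Actb, cytoplasmic actin, read 12.50, 12.98 and 12.65, and Fth1, the ferritin heavy chain, read 12.60, 13.11 and 12.90. Ubb-ps, annotated as a ubiquitin B pseudogene, read 13.04, 13.04 and 12.71, and whether RNA of the ubiquitin gene itself binds that probe was not tested. Egr1, an immediate early transcription factor, read 12.34, 12.86 and 12.12 and was the single gene of that class in the first 25.

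All 7 genes taken as marks of the calvarial osteoblast, namely Bglap2, Col1a1, Sparc, Ibsp, Alpl, Zic1 and Pth1r, were detected on each array, where 35.2% of all named genes were. The bone matrix list had 16 of 18 measured members detected on all 3 arrays, 2 on some and none on no array. Its median member stood at percentile 98.9 of signal within the arrays, where the median gene stood at 45.3. Ibsp, an acidic protein that nucleates mineral, read 10.53, 10.000 and 11.003, or 10.51 ± 0.50. Its second probe was detected on all arrays too but read 10.56, 7.78 and 8.45, and so ordered the arrays differently. Alpl, tissue-nonspecific alkaline phosphatase, read 10.10, 10.26 and 10.30, or 10.22 ± 0.11 with a range of 0.20.

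Several bone matrix and osteoblast genes ranked higher on replicate 1. Sp7, osterix, a transcription factor needed for osteoblast formation, read 10.79, 9.43 and 9.72 and ranked 123, 433 and 351. Ifitm5, a membrane protein largely restricted to osteoblasts, read 10.86, 9.18 and 9.66, and Smpd3, a sphingomyelinase needed for mineralisation, read 10.55, 8.69 and 8.97. Each stood over 1 log2 unit higher on replicate 1 than on either other array after normalization. In bead signals as deposited replicate 1 was the lowest, with Sp7 at 612, 1281 and 2481, so the direction depends on the scaling.

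The same held for the list as a whole. The mean level of the bone matrix members was 10.65, 10.05 and 10.32, which put replicate 1 above the mean of the others by 0.47. With scaling by the 75th percentile and no background correction the difference was -0.14, and replicate 3 was highest and replicate 1 lowest. Marrow markers moved the other way: the neutrophil list mean was 5.63, 8.22 and 7.67, with 20 of its 20 detected members lowest on replicate 1 against 42.9% of all genes, and the monocyte and macrophage mean was 4.76, 7.88 and 6.63. Their part in this difference was not tested. Of the 18 members, 3 were over 2-fold above both other arrays on replicate 1, where 4.71% of the 10226 genes detected on any array were. These 3 were Ifitm5, Smpd3 and Dmp1, an acidic matrix protein near background.

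**Figure D2:**
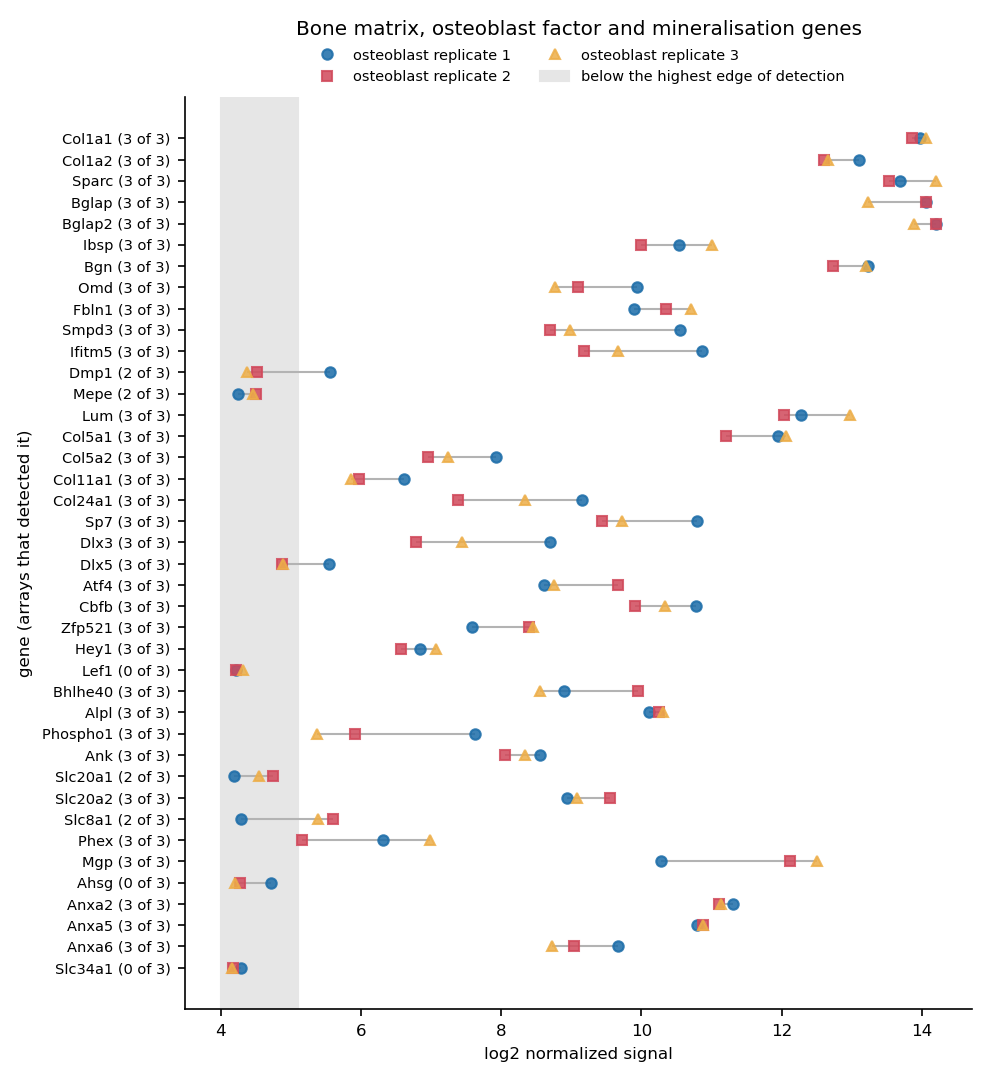
Log2 normalized intensity of the genes of bone matrix, osteoblast transcription factors and mineralisation, 1 row per gene and 1 point per array. The genes run from Bglap2 at 14.21, 14.21 and 13.90 down to undetected ones such as Lef1 at 4.22, 4.21 and 4.31, and points of the 3 arrays lie close together for Alpl and far apart for Phospho1 and Mgp. The grey band ends at 5.11, the highest of the edges of detection.

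The transcription factor list had 8 of 9 measured members detected on all arrays, and a median percentile of 92.4. Cbfb, the partner subunit of Runt-domain factors, read 10.78, 9.91 and 10.33. Atf4, a stress-responsive factor that acts on osteocalcin in osteoblasts, read 8.61, 9.67 and 8.75, and Bhlhe40, a basic helix-loop-helix repressor, read 8.89, 9.95 and 8.55. Zfp521, a zinc finger protein that restrains osteoblast maturation, read 7.59, 8.39 and 8.46. Cbfb read highest on replicate 1, Atf4 and Bhlhe40 on replicate 2 and Zfp521 on replicate 3. Dlx3 and Dlx5, homeobox factors of bone, read 8.70, 6.79 and 7.44 and 5.55, 4.87 and 4.88; for Dlx5 a second probe was below detection on every array. Lef1, a transcription factor of the Wnt pathway, was detected on none.

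Of the mineralisation genes, 9 of 13 measured were detected on all arrays, 2 on some and 2 on none. Ank, a pyrophosphate transporter that restrains mineral, read 8.56, 8.05 and 8.34, and Slc20a2, a phosphate transporter, read 8.94, 9.56 and 9.08. Anxa2 and Anxa5, calcium-binding proteins of matrix vesicles, read 11.30, 11.10 and 11.13 and 10.79, 10.87 and 10.88. Each of these differed by under 2-fold between any pair of arrays. Phospho1, a phosphatase that frees phosphate inside matrix vesicles, was wider at 7.62, 5.91 and 5.37. Mgp, matrix Gla protein, an inhibitor of calcification made by cartilage and vessels, read 10.29, 12.12 and 12.50 and was over 2-fold below both other arrays on replicate 1. Undetected members were Ahsg, a serum protein made in liver, and Slc34a1, the phosphate transporter of the kidney.

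Receptors for the hormones that act on bone were present unevenly, with 8 of 14 detected on all arrays, 3 on some and 3 on none. The share on all arrays was 57.1%, against 35.2% of all named genes. Pth1r, the receptor for parathyroid hormone, read 9.77, 8.57 and 9.40, or 9.24 ± 0.61, and its other 2 probes were detected on all arrays as well. Vdr, the vitamin D receptor, read 9.68, 8.50 and 8.50, and Ghr, the growth hormone receptor, read 8.15, 8.20 and 8.87. Rarg, a retinoic acid receptor, and Lrp5, a Wnt co-receptor that sets bone mass, read 6.61, 5.87 and 6.45 and 7.13, 5.58 and 5.80. Pth1r and Vdr were the brightest of the list, and both ranked higher on replicate 1 than on replicates 2 and 3. Lepr, the leptin receptor, Thrb and Insr were below detection on every array.

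Of 12 osteocyte genes measured, 5 were detected on all arrays, 5 on some and 2 on none, with a median percentile of 50.6. The first count is 41.7%, near the 35.2% of all named genes. Sost, the Wnt inhibitor made by mature osteocytes, read 4.33, 4.16 and 4.13 and was undetected, as was Fgf23, the phosphate-lowering hormone. Dmp1, made by young osteocytes, read 5.56, 4.52 and 4.37 and Mepe read 4.24, 4.49 and 4.46, each detected on 2 of 3 arrays. These levels lie at the edge of detection, which was 5.11, 4.37 and 4.40. The brighter members were Pdpn, podoplanin, at 8.53, 8.91 and 9.17, Irx5, a homeobox factor, at 8.10, 7.91 and 8.22, and Capg, an actin-capping protein, at 6.27, 7.13 and 6.76. Phex, an endopeptidase of phosphate balance, read 6.32, 5.15 and 6.99. It was the member of this list over 2-fold below both other arrays on replicate 2, where 0.0782% of genes were.

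Collagen chains beyond type I were present as well. Of 36 chains measured, 17 were detected on all arrays, 11 on some and 8 on none. The share on all arrays was 47.2%, against 35.2% of all named genes. After the type I chains, the brightest were Col5a1 at 11.94, 11.20 and 12.06, Col6a1 at 10.97, 11.58 and 11.86 and Col16a1 at 10.52, 10.83 and 11.73, which encode collagens that set fibril width or link fibrils to cells. Col3a1, the collagen of loose connective tissue, read 9.58, 9.93 and 10.66. Chains of the growth plate and of cartilage were low: Col10a1 was detected on no array and Col2a1 read 6.17, 4.96 and 5.03, detected on all 3 but near the edge on replicates 2 and 3.

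The enzymes that modify collagen were largely present, with 21 of 27 detected on all arrays, 5 on some and 1 on none. P4hb, the shared subunit of prolyl 4-hydroxylase, read 11.55, 10.87 and 11.20, and Lox, lysyl oxidase, which crosslinks collagen, read 10.87, 10.11 and 10.96. Pcolce, an enhancer of procollagen processing, read 10.84, 10.29 and 10.56, and Bmp1, the protease that removes the procollagen tail, read 10.23, 9.14 and 9.88. Loxl1, a lysyl oxidase of elastic fibres, read 9.76, 10.37 and 10.63 and was lowest on replicate 1, where the 4 others were lowest on replicate 2. Serpinh1, the collagen chaperone, read 9.998, 8.85 and 9.32, and Creb3l1, a factor that drives collagen secretion in bone, read 8.12, 6.47 and 6.09.

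The secretory pathway was at a similar rank. Of 45 genes of the endoplasmic reticulum and early Golgi, 38 were detected on all arrays, 1 on some and 6 on none, with a median percentile of 90.4. Ssr3, a subunit of the translocon, read 11.53, 10.61 and 10.91, Rpn2, of the oligosaccharyl transferase, read 11.03, 10.42 and 10.74, and Hsp90b1, a chaperone, read 10.35, 10.12 and 10.54. Of the 39 members detected on any array, 28 read highest on replicate 1, where 39.5% of all 10226 genes detected on any array did. The list mean was 8.37, 7.94 and 8.03, a difference of 0.38 between replicate 1 and the mean of the others that was -0.73 under scaling by the 75th percentile. Under that scaling replicate 3 was highest and replicate 1 lowest. The undetected members included Canx and Rpn1, genes that secretory cells use throughout, so an undetected gene is not shown to be silent.

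Small leucine-rich proteoglycans, which bind collagen fibrils, were among the brighter families, with 9 of 15 detected on all arrays and a median percentile of 94.2. Ogn, osteoglycin, read 10.26, 11.03 and 11.35, and Fmod, fibromodulin, read 8.97, 10.13 and 10.78. Prelp and Chad, binding proteins of cartilage and tendon matrix, read 8.15, 10.19 and 10.52 and 7.38, 9.30 and 9.82. These 4 were all lowest on replicate 1 and highest on replicate 3, as was the mean of the list under each scaling. Omd, osteomodulin, a proteoglycan of bone, read 9.93, 9.09 and 8.77, and so ran the other way. Kera, keratocan, was detected on no array.

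Of 19 genes that pattern the head, 7 were detected on all arrays, 8 on some and 4 on none, with a median percentile of 54.2. The first count is 36.8%, close to the 35.2% of all named genes, so the list as a whole was at the background rate. Zic1, which encodes a zinc finger protein of the dorsal neural tube and skull vault, read 7.67, 7.92 and 7.88, or 7.82 ± 0.14. Twist1, a factor whose loss fuses skull sutures, read 10.13, 9.28 and 9.16. Msx1, a homeobox factor of craniofacial mesenchyme, read 8.30, 8.39 and 8.30, and Prrx1, of skeletal mesenchyme, read 8.72, 8.68 and 8.72. Both varied less over the arrays than the median gene, with SDs of 0.05 and 0.02. Meis2, a cofactor of homeobox proteins, read 6.98, 7.37 and 7.42. En1, which marks a boundary within the skull vault, and Foxc1, a forkhead factor of calvarial bone, read 6.51, 6.42 and 6.02 and 6.74, 7.38 and 7.46. Six2 read 4.85, 6.64 and 6.34 and was detected on replicates 2 and 3 only, while Pax3, Alx4, Zic5 and Lmx1b were detected on none.

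The Hox genes were at background. Of 38 measured, none was detected on all arrays, 7 on some and 31 on none, where 35.2% and 38.4% of all named genes were detected on all and on none. The brightest were Hoxa13 at 4.998, 4.49 and 4.84 and Hoxa7 at 5.10, 4.80 and 4.39, and the median percentile was 24.1. These 2 levels straddled the edge of detection and differed by under 1 log2 unit between arrays.

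Signalling genes showed which ligands and inhibitors were present in the sorted cells. Of 42 Wnt pathway genes, 11 were detected on all arrays, 12 on some and 19 on none. The first count is 26.2%, below the 35.2% of all named genes. Of the 19 Wnt ligands 11 were detected on none, and the brightest ligand was Wnt5a, a non-canonical Wnt, at 7.27, 7.52 and 7.95. Secreted modulators were brighter: Dkk3 read 9.29, 9.51 and 10.22, Sfrp2, a decoy receptor, read 8.03, 9.64 and 9.25, and Wif1, an inhibitor made by maturing osteoblasts, read 9.05, 8.19 and 8.24. Axin2, a target that reports canonical Wnt activity, read 6.16, 5.39 and 5.98, and Nkd2, an inhibitor of the pathway, read 6.51, 6.36 and 6.71.

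Of 36 genes of the BMP and TGF-beta families, 21 were detected on all arrays, 7 on some and 8 on none. The share on all arrays was 58.3%, against 35.2% of all named genes. Among ligands, Gdf10, also called BMP3B, read 8.93, 10.56 and 10.77, and Bmp3, an inhibitory ligand of bone, read 9.39, 8.01 and 8.94. The classical osteogenic ligand Bmp2 was near background at 4.33, 4.25 and 4.40, detected on 1 array. Among receptors, Tgfbr1 read 8.89, 8.79 and 8.67 and Tgfbr2 read 8.98, 9.81 and 9.96, and each gene has other probes that were not detected on all arrays. Gdf10 was over 2-fold below both other arrays on replicate 1, while Bmp3 was highest there.

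Of 23 insulin-like and fibroblast growth factor genes, 11 were detected on all arrays, 6 on some and 6 on none. The share on all arrays was 47.8%, against 35.2% of all named genes. Igf2, a growth factor of fetal and young tissue, read 11.64, 12.57 and 12.24, and Igf1 read 6.74, 7.83 and 7.97. The binding protein Igfbp5, abundant in bone, read 11.71, 12.19 and 11.94, and Igfbp4 read 8.996, 10.54 and 10.12. Igf2, Igfbp5, Igfbp4 and Igfbp7, at 8.67, 10.15 and 9.94, were the brightest of the list, while Igfbp2, Igfbp3 and Igfbp6 were below detection on replicate 1 and Igfbp1 on every array. Of the list, 6 of the 17 members detected on any array were over 2-fold below both other arrays on replicate 1, where 4.52% of genes were. Among these, Fgf7, a mesenchymal growth factor for epithelia, read 4.14, 7.28 and 6.79 and Igfbp6 read 4.33, 7.11 and 6.71, both below detection on replicate 1.

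Genes through which osteoblasts govern osteoclasts were present at low to middle levels. Of 8 measured, 4 were detected on all arrays and 4 on some. The share on all arrays was 50.0%, against 35.2% of all named genes. Tnfrsf11b, osteoprotegerin, the decoy that blocks osteoclast formation, read 7.15, 7.22 and 7.74, and Tnfsf11, the ligand it captures, read 4.19, 5.52 and 5.28. The decoy was detected on all arrays and the ligand on replicates 2 and 3. Sema3a, an axon guidance factor that also restrains osteoclasts, read 6.05, 5.42 and 5.57.

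Markers of cells other than osteoblasts were measured in the same samples. The osteoclast list had 5 of 15 members detected on all arrays, 6 on some and 4 on none, which is 33.3% on all arrays against 35.2% of all named genes. Its median percentile was 46.8, 70.2 and 58.6 on replicates 1, 2 and 3. Ctsk, cathepsin K, read 10.74, 10.17 and 10.82, Nfatc1 read 7.32, 7.24 and 7.44 and Tcirg1 read 7.01, 7.46 and 7.41. These 3 were detected on all arrays and each differed by under 1 log2 unit between them. Mmp9, a gelatinase of osteoclasts and neutrophils, read 4.47, 7.01 and 7.73, and Tnfrsf11a, the receptor RANK, read 4.26, 6.11 and 5.27, both below detection on replicate 1. Calcr, the calcitonin receptor, Itgb3, Dcstamp and Ocstamp were detected on no array, and Acp5, the tartrate-resistant phosphatase, on 1, at 4.83, 4.55 and 4.31.

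Among the marrow and blood lists, the neutrophil genes had the highest median percentile averaged over the arrays, 79.6, although on replicate 2 the MHC class II list stood at 93.5 against their 93.1. They differed between arrays more than the bone lists did. Of 22 measured, 10 were detected on all arrays, 10 on some and 2 on none, and without replicate 1 the first count was 19. Leaving out that array also raised the count over all 16593 named genes, from 5848 to 8395. S100a8, a calcium-binding protein of neutrophils, read 8.80, 12.28 and 12.42, and its partner S100a9 read 7.65, 11.16 and 10.68. Mpo, myeloperoxidase, read 7.63, 9.85 and 9.35, and the granule proteins Camp and Ltf read 6.50, 10.29 and 9.92 and 6.63, 9.99 and 9.77. All 5 were lowest on replicate 1 and of like size on replicates 2 and 3. In bead signals S100a8 was 189, 9530 and 11723.

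Over the list, 20 of the 20 members detected on any array were lowest on replicate 1, where 42.9% of all genes were. Of these, 13 were over 2-fold below both other arrays there, against 4.52% of all genes. Their mean was 5.63, 8.22 and 7.67. The difference of replicate 1 from the mean of the others was -2.31 and lay between -2.54 and -1.80 under the other scalings and the other rule for probes. Genes of early granulocytes such as Elane, Prtn3 and Ctsg were detected on all arrays, with Elane, neutrophil elastase, at 6.07, 8.57 and 7.39.

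Monocyte and macrophage genes set replicate 2 apart as well. Of 18 measured, 4 were detected on all arrays, 13 on some and 1 on none, and without replicate 1 the first count was 15. Over all 16593 named genes the same step moved the count from 5848 to 8395. Lyz2, lysozyme, read 5.36, 11.24 and 10.73, the widest range of any gene detected on all arrays, and its other 2 probes were not detected on all of them. C1qb, a complement subunit made by macrophages, read 5.66, 10.16 and 8.37, and Mrc1, the mannose receptor, read 4.60, 9.87 and 8.10. For these the order was replicate 2 above replicate 3 above replicate 1. Of the 17 members detected on any array, 12 were over 2-fold below both others on replicate 1, and 12 were over 2-fold above both others on replicate 2, where 2.00% of genes were. The list mean was 4.76, 7.88 and 6.63.

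The genes of MHC class II, used by macrophages, dendritic cells and B cells to present antigen, went the same way. Cd74, the invariant chain, read 5.82, 11.09 and 9.66, and H2-Ab1 read 6.31, 10.97 and 9.62. Of 8 measured, 3 were detected on all arrays, 4 on some and 1 on none, and 5 of the 7 detected on any array were over 2-fold above both others on replicate 2, against 2.00% of all genes. The mean was 5.23, 8.73 and 7.60. 

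The B-cell list itself had 1 of 17 members detected on all arrays, 11 on some and 5 on none. By array, 1 was detected on replicate 1, 12 on replicate 2 and 7 on replicate 3, where 38.7%, 55.7% and 53.9% of all named genes were. On replicate 2 the median percentile was 58.2, and 11 of the 12 members detected on any array read highest there, against 28.0% of all genes. All 12 were detected on replicate 2 and some on that array alone. This count was thus partly fixed by the filter, and no conclusion is drawn from it. The list mean, at 4.51, 5.05 and 4.50, was highest on replicate 2, but on replicate 1 under scaling by the 75th percentile. Blnk, an adaptor of B-cell receptor signalling, read 4.17, 5.77 and 4.67, and Cd79b, a subunit of that receptor, read 4.51, 5.49 and 4.76. The member on all arrays was Ebf1, a factor that stromal cells use too, at 5.64, 5.54 and 5.37. Pax5, Ms4a1, Rag1, Rag2 and Vpreb2 were the 5 detected on none.

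Of 16 red cell genes measured, 2 were detected on all arrays, 8 on some and 6 on none. The median percentile was 30.3, 49.8 and 44.6 on replicates 1, 2 and 3, where the median gene stands at 50.0, so 1 bright member was not typical of the list. That member was Hba-a1, an alpha globin, at 7.97, 11.73 and 11.53. Hbb-bt, a beta globin, read 4.23, 7.65 and 6.78, and Slc4a1, the anion exchanger of the red cell membrane, read 4.24, 6.996 and 5.51. These 3 were lowest on replicate 1, like the neutrophil genes. T-cell and natural killer genes had 2 of 17 on all arrays, Thy1 at 8.51, 9.58 and 9.23, which fibroblasts and osteoblasts of the mouse also express, and Cd247 at 7.60, 6.34 and 6.97, with other probes of Cd247 undetected. Cd3e, Cd3g and Cd8a were detected on none.

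The smaller marrow lists had few members detected on all arrays. Megakaryocyte genes had 0 of 9 on all arrays. On replicate 2, where 55.7% of all named genes were detected, 6 of the 9 were. Among these was Pf4, platelet factor 4, at 4.23, 8.82 and 6.22. Mast cell and basophil genes had 1 of 11 on all arrays, Cpa3, a mast cell carboxypeptidase, at 5.49, 6.42 and 4.64. On replicate 2, however, 9 of the 11 were detected, with a median percentile of 63.9, where 55.7% of all named genes were detected. Those 9 all read highest there, against 28.0% of all genes detected on any array. On replicates 1 and 3 only 1 and 4 were detected. Some members thus entered the count through replicate 2 alone, so it was partly fixed by the filter and no conclusion is drawn from it. Hdc, the histamine-forming enzyme, read 4.47, 7.89 and 7.13 and was detected on replicates 2 and 3, while Mcpt4, a mast cell protease, read 4.59, 6.05 and 4.31 and was detected on replicate 2 alone. Progenitor genes had 1 of 10 on all arrays, Meis1 at 7.07, 6.62 and 6.62, while Flt3, Myb and Procr were undetected.

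**Figure D3:**
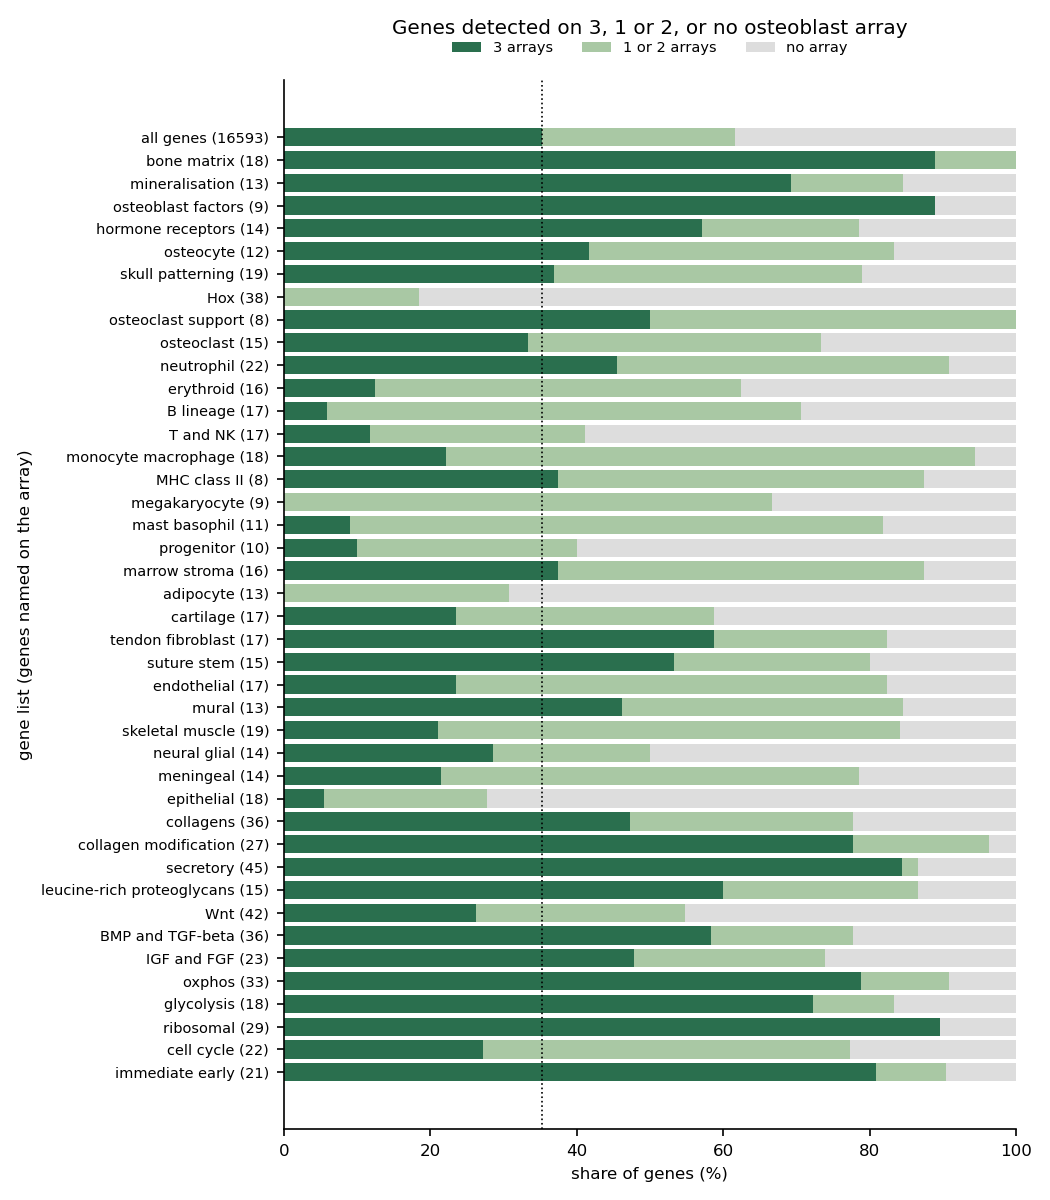
Share of the measured members of each gene list (percent, bars adding to 100) that were detected on all 3 osteoblast arrays, on 1 or 2, and on none. The bone matrix and secretory lists reach 16 of 18 and 38 of 45 on all arrays, while Hox, megakaryocyte and adipocyte lists have 0. The dotted line marks the share over all named genes, 35.2%.

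Stromal and neighbouring tissues differed among themselves. Of the genes of marrow stroma, 6 of 16 were detected on all arrays, 8 on some and 2 on none, which is 37.5% on all arrays against 35.2% of all named genes. Cxcl12, the chemokine that holds blood progenitors, read 7.50, 8.29 and 9.04, Pdgfra, a receptor of mesenchymal cells, read 10.000, 9.04 and 9.59, and Vcam1, an adhesion molecule, read 7.16, 9.92 and 8.58. Another Cxcl12 probe read 5.70, 7.26 and 7.04, and its remaining probes were undetected on some or every array. Lepr, which defines the main stromal population of long bone marrow, was undetected by both of its probes. Fat cell genes had 0 of 13 on all arrays, with Adipoq at 4.40, 4.78 and 4.58 and Fabp4, Plin1, Cidec and Lep undetected.

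Genes assigned to suture stem cells had 8 of 15 on all arrays, but most of those are shared with osteoblasts or fibroblasts, as Ctsk, Pdgfra and Prrx1 are. Acta2, smooth muscle actin, read 11.41, 11.89 and 11.69. Its dimmer probes were detected on all arrays as well but spread more widely, at 7.25, 9.33 and 8.72, at 7.69, 9.82 and 9.22 and at 9.29, 9.81 and 9.12. Gli1, the defining gene of suture stem cells, was undetected, at 4.39, 4.26 and 4.23. Tendon and fibroblast genes had 10 of 17 on all arrays, 4 on some and 3 on none. Tnc, tenascin C, read 10.15, 10.30 and 10.82, Scx, scleraxis, read 6.68, 5.71 and 6.96, and Tnmd, tenomodulin, read 4.25, 4.23 and 4.40, which was detected on 1 array. Postn, periostin, a product of the periosteum, read 4.14, 4.09 and 4.14 and was undetected. Whether its probe works was not tested.

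Endothelial genes had 4 of 17 on all arrays, 10 on some and 3 on none. Eng, endoglin, read 6.73, 6.89 and 6.90, Ramp2, a receptor partner of vessels, read 4.78, 7.10 and 7.56, and Egfl7, a secreted product of endothelium, read 4.32, 5.92 and 6.86. Of 14 members detected on any array, 13 read highest on replicate 3, where 32.4% of all genes did, and 4 were over 2-fold above both others there, where 0.284% of genes were. All 14 were detected on replicate 3, against 4 on replicate 1 and 11 on replicate 2. The counts, and the mean over the same members, thus rest in part on the filter, and no conclusion is drawn from them. The list mean was 4.76, 5.18 and 5.86, and replicate 3 was highest under each scaling, while the lowest was replicate 2 under scaling by the 75th percentile. Kdr and Flt4, receptors that define endothelium, were undetected, and Cdh5, its cadherin, was detected on 1 array. Mural cell genes had 6 of 13 on all arrays, and Rgs5, a marker of pericytes, read 4.17, 4.76 and 6.21, also highest on replicate 3.

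Skeletal muscle genes had 4 of 19 on all arrays, 12 on some and 3 on none. Myl1, a myosin light chain of fast fibres, read 5.51, 8.46 and 7.56, and Acta1, muscle actin, read 4.13, 7.73 and 6.33. Of the 16 detected on any array, 13 read highest on replicate 2, where 28.0% of all genes did, and 7 were over 2-fold below both others on replicate 1, where 4.52% were. All 16 were detected on replicate 2, against 4 on replicate 1 and 14 on replicate 3, so the first count rests in part on the filter. The list mean was lowest on replicate 1, but on replicate 3 under scaling by the 75th percentile. Myod1, the muscle determination factor, was undetected on each array. Cartilage genes had 4 of 17 on all arrays, with Comp at 7.54, 7.49 and 7.24 and Sox9, the factor of chondrocytes, at 4.76, 5.29 and 4.86.

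Nerve, glial, meningeal and epithelial lists had smaller shares detected on all arrays than the 35.2% of all named genes. Nerve and glial genes had 4 of 14 on all arrays, with Pmp22 at 9.14, 9.83 and 8.995 and Gfap, Snap25 and Aqp4 undetected. Meningeal genes had 3 of 14 on all arrays and 8 on some. Of the 3, Mgp and Ogn were also on bone lists given above. Slc47a1, a transporter of the meninges, was not among the 3. It read 4.91, 8.02 and 6.77 and was detected on replicates 2 and 3. Epithelial genes had 1 of 18, Krt10 at 7.04, 6.43 and 6.74, and 13 were undetected, among them Krt5, Cdh1 and Trp63.

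**Figure D4:**
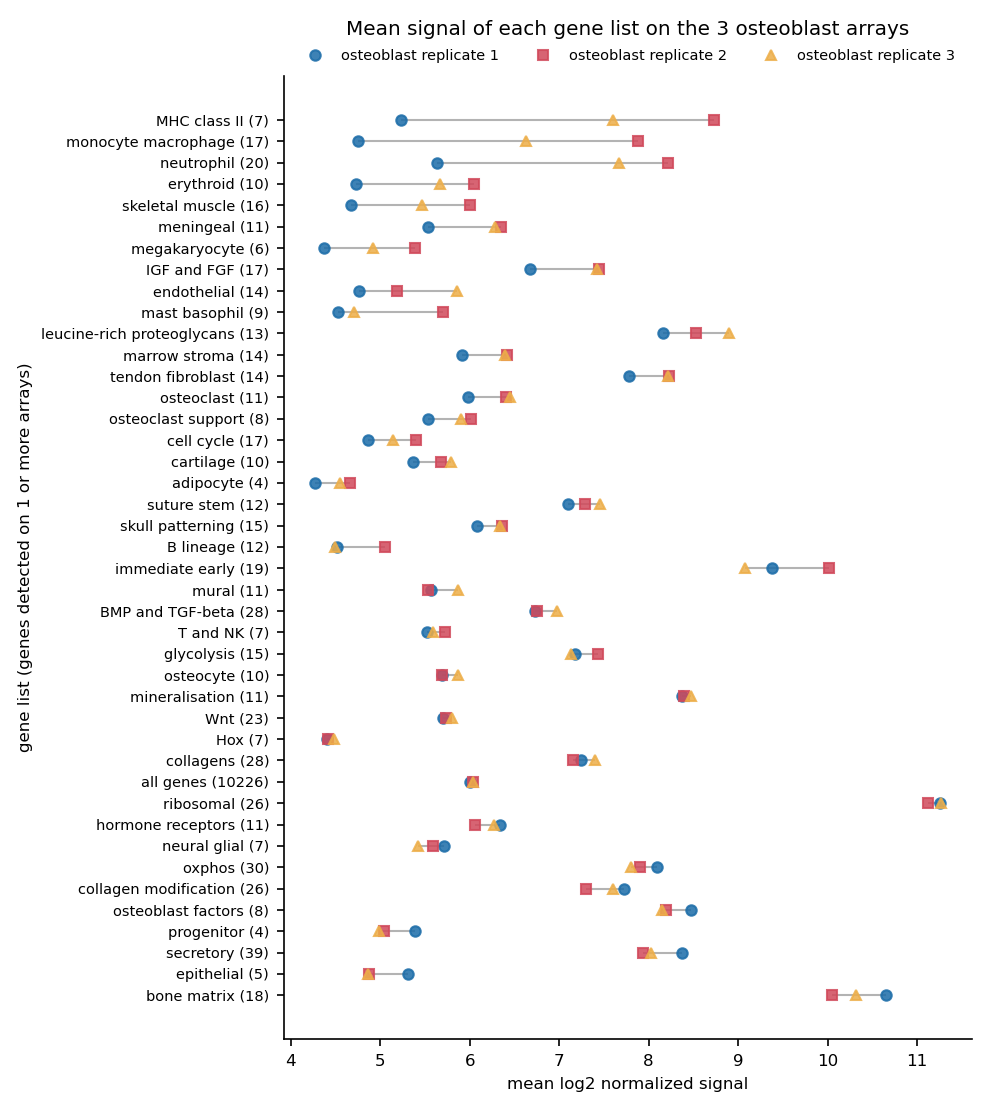
Mean log2 normalized intensity of the members of each gene list that were detected on at least 1 array, 1 point per array. Points of the bone and general lists lie within 1 log2 unit of each other, while the neutrophil list reads 5.63, 8.22 and 7.67 and the MHC class II list 5.23, 8.73 and 7.60 on replicates 1, 2 and 3.

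General programmes gave a scale for these values. Ribosomal protein genes had 26 of 29 on all arrays, a median percentile of 99.6 and list means of 11.26, 11.13 and 11.27. The order of these means turned with the scaling: replicate 1 was highest in the authors' normalized values, at 12.30, 12.04 and 12.15, and lowest under scaling by the 75th percentile, at 3.62, 4.80 and 4.81. The other 3, Rplp2, Rpl6 and Rps23, were undetected on each array although every cell makes these proteins. Respiratory chain genes had 26 of 33 on all arrays, with Atp5b, of ATP synthase, at 11.57, 11.23 and 11.43. Glycolysis genes had 13 of 18, with Ldha, lactate dehydrogenase, at 10.13, 10.06 and 9.79, and Pgk1 undetected. Cell division genes had 6 of 22 on all arrays, 11 on some and 5 on none. The share on all arrays was 27.3%, below the 35.2% of all named genes. Top2a, the topoisomerase of dividing cells, read 5.84, 6.38 and 5.90.

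Immediate early genes, which are switched on within minutes of a stimulus, were bright on every array. Of 21 measured, 17 were detected on all arrays, with a median percentile of 97.7. Fos read 12.19, 12.50 and 11.87, Fosb read 11.33, 11.98 and 10.80 and Zfp36, an RNA-binding protein that limits such responses, read 10.88, 12.26 and 11.24. Of the 19 detected on any array, 15 read highest on replicate 2 and 13 lowest on replicate 3, where 28.0% and 24.6% of all genes did. The mean was 9.38, 10.02 and 9.08, and replicate 2 was highest under each scaling, while the lowest was replicate 1 rather than 3 under scaling by the 75th percentile. On replicate 3, Klf4, a Krüppel-like factor, read over 2-fold below both others, at 9.36, 10.02 and 7.82, as did Atf3 at 9.86, 10.57 and 8.39 and the heat shock gene Hspa1a at 10.98, 10.79 and 9.47, where 0.127% of genes did.

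Over the 5848 genes detected on all 3 arrays, the median SD was 0.28 log2 units, and its 10th and 90th percentiles were 0.10 and 0.59. The range over the arrays passed 2-fold for 840 genes, or 14.4%, and 4-fold for 92 genes, or 1.57%. Replicates 2 and 3 were the closer pair. They differed by over 2-fold at 158 of these genes, or 2.70%, against 595, or 10.2%, for replicates 1 and 2 and 481, or 8.23%, for replicates 1 and 3. Pearson's r across genes was 0.963 for replicates 2 and 3, 0.905 for 1 and 2 and 0.920 for 1 and 3, and genes are not independent replicates. In 4 equal bins of mean signal from dim to bright, the median SD was 0.32, 0.27, 0.25 and 0.28, so spread hardly moved with signal.

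Of the 92 genes that spanned over 4-fold, 68 were lowest on replicate 1, 16 highest there, 57 highest on replicate 2 and 19 highest on replicate 3. Over the 10226 genes detected on any array these shares were 42.9%, 39.5%, 28.0% and 32.4%. Of the 92 genes, 16 were on a marrow or blood list, and those lists held 128 of the 16593 named genes. The 10 widest were Lyz2, Cd74, Ccl4, Laptm5, H2-Ab1, Ulk4, C1qb, Lyz1, Apoe and Retnla. Apart from Ulk4 and Retnla these read lowest on replicate 1 and highest on replicate 2. Ccl4, a chemokine, read 5.90, 10.84 and 9.23, Laptm5, a lysosomal protein of blood cells, read 6.07, 10.73 and 9.63, and Apoe, an apolipoprotein of macrophages and other cells, read 5.28, 9.74 and 8.21. Retnla, a product of alternatively activated macrophages, read 5.59, 9.28 and 4.97 and stood out on replicate 2 alone. No bone matrix or mineralisation gene was among these 10, but those lists hold only 18 and 13 of the 16593 named genes.

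Genes that set a single array apart were named by their gap to the nearer of the other arrays. On replicate 1 the largest upward gaps were at Ttr, Rchy1, Ulk4, Gemin2, Ctcfl, Zbtb2, Rps23rg1 and Gipc1. Ulk4, a kinase-like protein, read 9.22, 6.22 and 4.63 from bead signals of 236, 188 and 123, and Rchy1, a ubiquitin ligase, read 7.85, 4.39 and 4.22 from 130, 95.4 and 100. These bead signals were within 2-fold of each other, while the levels after background correction and scaling spanned over 4-fold. On replicate 1 the largest downward gaps were at Lyz2, Lyz1, Chil3, Cd74, Ly6c1, Fcer1g, Ccl9 and Cd83, which are genes of myeloid or antigen-presenting cells except Ly6c1, which vessels also express.

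On replicate 2 the largest upward gaps were at Ccl7, Retnla, Ccl2, Il1b, Plau, Cxcl1, Pf4 and Plek. Ccl7, a monocyte chemokine, read 4.59, 9.97 and 6.20, and Il1b, interleukin 1 beta, read 4.73, 9.84 and 6.71. Ccl2 and Cxcl1 are likewise chemokines. The downward gaps on replicate 2 were small, and the largest, at Gsg1, was 1.22. On replicate 3 the upward gaps were led by Angptl1 at 5.38, 6.13 and 8.44, followed by Angptl7, Chst8, Rgs5, Thbs2, C1qtnf3, Eif2s3y and Cldn10. Thbs2, thrombospondin 2, a matrix protein of connective tissue, read 9.17, 10.21 and 11.64. The downward gaps there were led by Tnfrsf10b at 7.87, 7.32 and 5.02, a death receptor with 4 more probes, none of them detected on all arrays, and Ddx3x at 7.97, 8.44 and 6.35, an RNA helicase. The bone matrix genes took no place among these largest gaps, and of the mineralisation genes Phex did, on replicate 2. These lists hold only 18 and 13 of the 16593 named genes, so few of their members could be met there.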

How the data were processed

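Bead signals, deposited without normalization as linear intensity values, and a detection p-value for each signal were read, per the file headers, for 25697 probes. A deposited table of intensity values normalized by the authors, for which the submitters' processing notes name lumi, with no version, served as an alternative, and its method is not given in the sources used here. The column of replicate 3 was matched through its description, since the number in its title differs. Each non-normalized column kept the exact rank order of its normalized partner. Image processing is not given in the sources used here.

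Background was corrected from the detection p-values, an offset of 16 was added and quantiles were equalised over all 6 arrays by the neqc function (R 4.3.3, limma 3.58.1), giving log2 values. The calculation of counts and spread was tested on simulated data. A probe was detected at a deposited p below 0.05. Of the probes, 23978 carried 1 gene symbol in the platform annotation, 1719 were without a symbol here and 0 had more. Each gene was read from its brightest probe by mean over the osteoblast arrays, which gave 16593 genes, 4777 of them with several probes. Percentiles run from 0 to 100 within an array.

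No group was compared with another and no p-value was computed. A gene was set apart on an array where it lay over 2-fold above, or below, both other arrays. The 41 gene lists hold 878 entries, of which 794 could be named on the array; the others were not analysed here. The members and lists were chosen with earlier results of these data known. Genes named were the 25 of highest mean percentile, the 7 markers, up to 5 members of highest mean signal per list, members that show a defining gene at background, the 10 of widest range, and the 8 farthest above and below both other arrays on each array. Ifitm5, Smpd3, Dlx3, Dlx5, Ank, Phospho1, Serpinh1, Creb3l1, Prelp, Omd, En1, Foxc1, Six2, Axin2, Igf1, Fgf7, Igfbp1, Igfbp2, Igfbp3, Igfbp6, Tnfsf11, Mmp9, Tnfrsf11a, Elane, Prtn3, Ctsg and Scx were named outside that rule, after their values were seen. The alternatives were the authors' normalized values, neqc over the 3 osteoblast arrays alone, scaling by the 75th percentile without background correction, the median over a gene's probes, other detection rules, and leaving out each array. The number of arrays, 3, limits the precision.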

Additional observations from a re-analysis of the deposited data

How the results depend on the processing

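No paired analysis was possible because no groups were compared. The count of 5848 genes detected on all arrays stayed within 1.5 times under every alternative run: it was 5252 at a detection p below 0.01, 5321 with adjusted detection p, 4149 where every probe had to be detected, and 5875 to 8395 with an array left out. The spread depended on the processing. The median SD of 0.28 was 0.21 in the authors' normalized values, 0.39 under scaling by the 75th percentile without background correction, 0.18 with no filter on detection and 0.17 to 0.28 with an array left out. The 840 genes over 2-fold were 409, 2072, 1929 and 158 to 595 in the same order, and 158 is the count without replicate 1. The median percentile of list members was 98.3 for bone matrix, 95.1 for mineralisation and 91.1 for transcription factors with the median over probes. With an array left out it was 91.5 to 94.1 for transcription factors, 54.2 became 55.4 to 65.1 for skull patterning, and Hox genes gave 22.3 to 24.4. The difference of replicate 1 from the mean of the others moved most under scaling by the 75th percentile: to -0.14 for bone matrix, -1.01 for mineralisation, -0.89 for transcription factors, 0.62 for Hox, -0.30 for red cell, -0.023 for endothelial, -0.17 for muscle, -0.52 for collagen modification, -0.73 for secretory and -1.30 for immediate early genes. The cause was not tested. For monocyte and macrophage genes it ranged from -2.80 to -1.39 and for MHC class II from -3.20 to -2.13, with the same sign as the -2.50 and -2.94 of the quantile scaling. Over the 41 lists, 134 of the alternative values of this difference moved by less than the spread between arrays and 30 by more; for the median percentile these counts were 138 and 26. Chosen after seeing the data, the counts without replicate 1 were 19 against 10 for neutrophil and 15 against 4 for monocyte and macrophage genes, and 17, 11, 8, 25 and 38 for bone matrix, mineralisation, transcription factor, collagen modification and secretory genes. Over all named genes the count without replicate 1 was 8395 against 5848.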

Other observations

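Of 15 genes of the circadian clock, chosen after their values were seen, 9 were detected on all arrays, 3 on some and 3 on none. Of the 12 detected on any array, 8 were lowest and 4 highest on replicate 1, where 42.9% and 39.5% of all genes detected on any array were. Dbp, an output factor of the clock, read 6.005, 9.15 and 9.87, and the repressors Nr1d1 and Nr1d2 read 6.20, 8.39 and 8.41 and 4.37, 7.25 and 6.93. These 3 were lowest on replicate 1. Arntl, the positive arm of the clock, read 7.03, 5.73 and 5.19 and Npas2, its partner, read 5.53, 5.12 and 4.97, both highest on replicate 1. Ciart, a repressor among the clock's outputs, read 5.80, 5.41 and 5.33 and was highest on replicate 1 as well. Per2 read 5.83, 6.78 and 6.74, while Per1 read 7.83, 8.12 and 7.94 and Clock read 8.04, 7.67 and 7.76 and varied less. Hlf, Cry1 and Bhlhe41 were detected on no array. The labels give no hour of collection for any pool.

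A second set noted in the same way was that of inflammatory products. Ccl2 read 4.30, 8.63 and 5.37, Ccl3 read 4.59, 9.97 and 7.72, Tnf read 4.17, 8.73 and 6.93 and Cxcl1 read 8.42, 11.30 and 8.69. Hmox1, the stress-induced heme oxygenase, read 5.24, 8.91 and 6.55, and Icam1, an adhesion molecule, read 7.73, 9.91 and 7.88. All 13 genes of the set were highest on replicate 2, where 28.0% of all genes detected on any array were. The set was chosen after its values were seen and includes genes named above for their large upward gaps on replicate 2. The count was therefore partly fixed by the choice, and no conclusion is drawn from it. On the same array the macrophage list read 7.88, against 4.76 and 6.63 on the others. The part of macrophage RNA in these values was not tested.

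The pools were of mixed gender, and the 4 sex-linked genes measured were detected on 1 or 2 arrays each. Xist, transcribed from the inactive X chromosome, read 4.37, 5.92 and 4.67, and the Y-linked gene Eif2s3y read 4.64, 4.14 and 6.03. Kdm5d and Uty, also Y-linked, read 4.35, 4.28 and 4.88 and 4.26, 4.47 and 4.67, highest on replicate 3 like Eif2s3y, while Xist was highest on replicate 2.

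Ttr, transthyretin, a product of liver and choroid plexus, was detected on replicate 1 alone, at 7.95, 4.30 and 4.32, from bead signals of 135, 92.6 and 107. Of the 5 other choroid plexus genes measured, Folr1, Kl and Otx2 were detected on no array, and Clic6 read 4.25, 4.42 and 4.27 and was detected on replicate 2 alone. Aqp1, a water channel of that tissue and of vessels, read 9.97, 9.59 and 9.90 and was detected on all 3.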
